A study of Homo sapiens with 6 samples.

Results

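The genes described are 9 genes of the matricellular and stromal matrix: SPARC, TNC, THBS1, TGFBI, POSTN, DCN, LUM, FBN1 and FAP. They were taken by gene symbol, and 30 of the 54613 tested probe sets of the array carry 1 of these symbols, none of them together with a second gene. MCF10A, an immortalised human breast epithelial line that does not form tumours, was transfected either with a miR-221 and miR-222 mimic (the mimic) or with a control microRNA (the control), and both groups are the same cell line with 3 biological replicates each. Total RNA of each replicate was hybridised to 1 biotin-labelled single-colour array, 6 in all, and each value is a log2 intensity, so that a difference of 1 is 2-fold. The labels do not state the dose, the time after transfection or whether both microRNAs were given together.

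Matricellular proteins are secreted into the matrix around cells, where they alter adhesion, migration and growth factor activity and do not themselves build its fibres. SPARC, tenascin-C, thrombospondin-1, periostin and the protein of TGFBI belong to this class or lie close to it. Decorin and lumican are small leucine-rich proteoglycans that coat collagen fibrils, fibrillin-1 builds microfibrils, and FAP is a protease on the surface of activated fibroblasts. Fibroblasts are the best known source of most of these proteins, and breast epithelial cells can make some of them, more so in wounds and tumours.

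The sequences of the mature 3p strands of both microRNAs are shown because the whole comparison rests on them, with the seed (bases 2 to 8) in capitals. They are from RefSeq on GRCh38.p14, minus strand, at chrX:45746180-45746202 for miR-221-3p and chrX:45747036-45747056 for miR-222-3p. The labels do not state which strand the mimic carried.
hsa-miR-221-3p: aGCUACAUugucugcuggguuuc
hsa-miR-222-3p: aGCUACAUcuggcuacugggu
Both strands share the seed GCUACAU and differ downstream of it. No target site in the 9 genes was examined here.

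Across probe sets, which are not independent replicates, r was 0.995 to 0.998 within a group and 0.982 to 0.986 between groups. The lowest value on an array was between 3.67 and 3.72 and the median between 7.59 and 7.66. No detection calls were used, so it is not known whether a dim probe set was above background. RNA integrity was read from the ACTB and GAPDH integrity probe sets as the log2 signal at the 3' end less that at the 5' end. For ACTB it was 0.33 to 0.39 in the mimic arrays and 0.29 to 0.36 in the control arrays. For GAPDH it was 0.02 to 0.04 in the mimic arrays and -0.05 to 0.02 in the control arrays. Its part in the results was not tested.

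Read at the brightest probe set of each gene, SPARC, FAP, TNC and LUM were between 2.08-fold and 3.86-fold lower in the mimic arrays, and DCN was 3.16-fold higher. FBN1 and TGFBI were lower and THBS1 higher by less than 1.5-fold, and POSTN did not pass the test. Thus 6 of the 9 genes were lower, where 16.3% of all 19775 genes were, and 2 were higher, where 14.1% were (limma, Benjamini-Hochberg adjusted p under 0.05 over all tested probe sets). The 9 genes were chosen with earlier results of these data known, so the shares over all genes given here are no test of the set. At least 2-fold lower were 4 of the 9, against 2.09% of all genes, and 1 was at least 2-fold higher, against 0.961%. The 4 include LUM, which lies near the floor. For LUM and FBN1 the probe set read is the brightest only through the control arrays, where the gene is high. The mimic and control arrays did not overlap for 8 of the 9 genes, against 45.6% of all genes. When each gene was read as the mean of its probe sets, 2 of the 9 (SPARC and FAP) were at least 2-fold lower and 1 (DCN) at least 2-fold higher. The share of all genes with probe sets averaged was not worked out, and the shares above are of another measure. The 9 genes had a median log2 change of -0.44, or -0.27 with probe sets averaged, against 0.03 over all genes at the brightest probe set. Over the 30 probe sets, of which DCN and THBS1 have 7 each, the median was 0.12, against 0.03 over all probe sets. Counted by probe set, 19 of the 30 were called, where 24.8% of all tested probe sets were. Of these, 8 were lower (13.1% of all) and 11 higher (11.6% of all), the higher ones being 6 of DCN and 5 of THBS1. The groups did not overlap at 20 of the 30, against 39.2% of all probe sets. In RNA of a whole culture, fewer cells expressing a gene and less RNA per cell cannot be told apart.

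**Figure D1:**
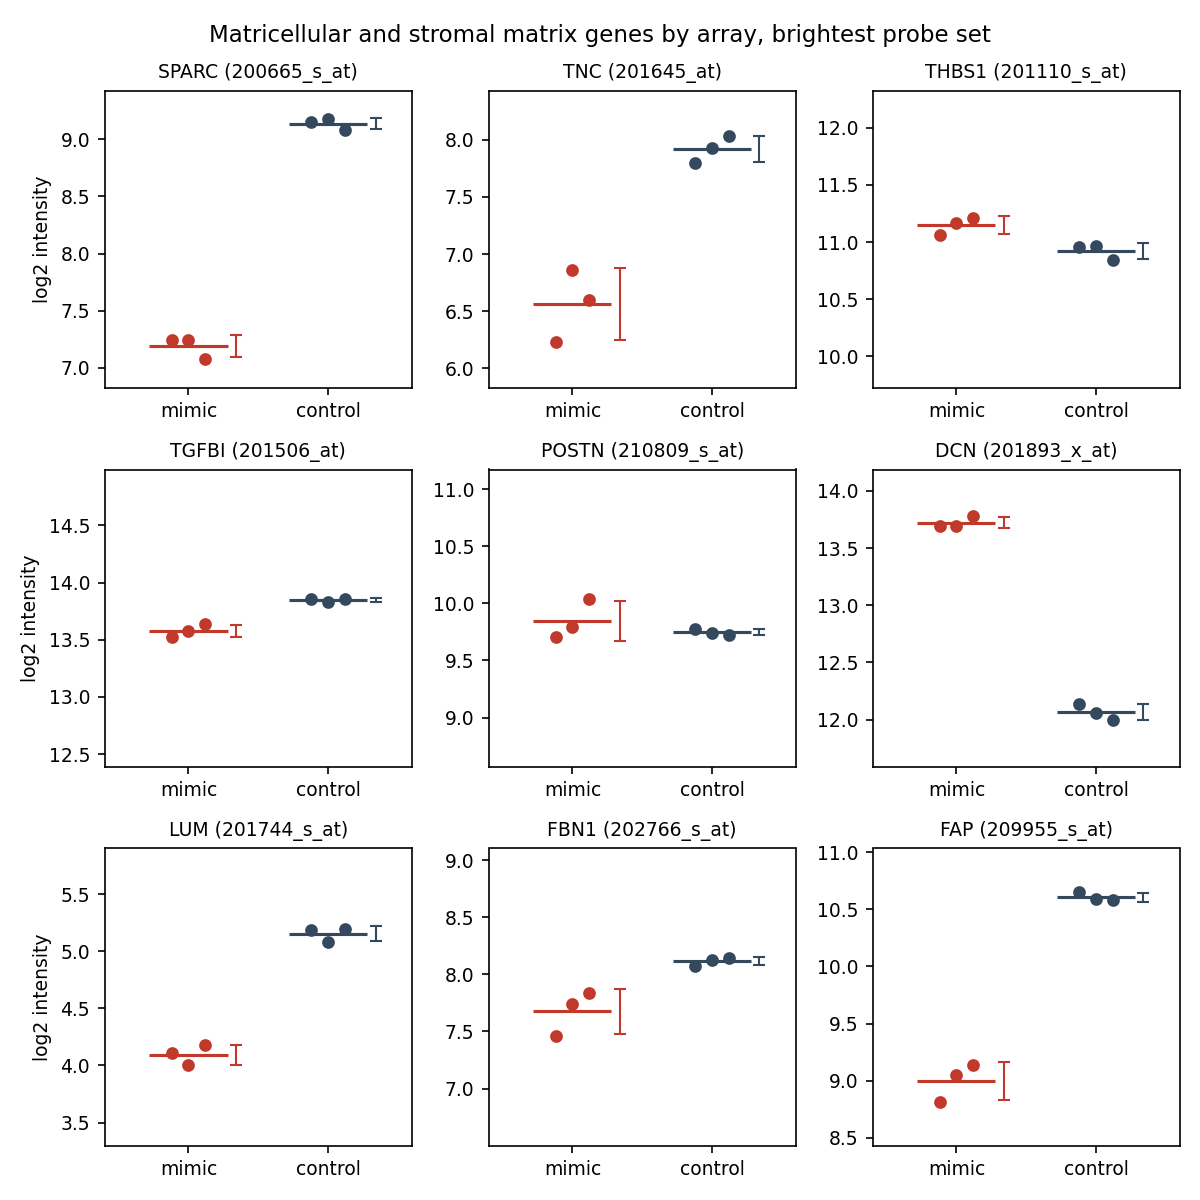
Log2 intensity of the 9 genes at the brightest probe set, 1 panel per gene, all with axes of the same length in log2 units; points are single arrays (mimic left, control right), lines are group means and the bars beside them are ± 1 SD (n = 3). The mimic points lie below all control points for SPARC, TNC, TGFBI, LUM, FBN1 and FAP and above them for THBS1 and DCN, and overlap them for POSTN.

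SPARC, a secreted calcium- and collagen-binding glycoprotein that loosens the contact of cells with their matrix, fell most of the 9 genes. At its brighter probe set (200665_s_at) it measured 7.24, 7.25 and 7.08 in the mimic arrays, against 9.15, 9.18 and 9.08 in the control arrays. All mimic arrays lay below all control arrays, with 1.84 log2 units between the nearest arrays of the groups. Means were 7.19 ± 0.10 under the mimic and 9.14 ± 0.05 under the control (SD, n = 3 each), a log2 change of -1.95 ± 0.07 (SE; limma adjusted p = 8.9e-09). The second probe set (212667_at) measured 5.23, 5.30 and 5.22 in the mimic arrays, against 6.36, 5.92 and 6.36 in the control arrays. Its groups did not overlap either, with control replicate 2 lowest of the control arrays, and its log2 change was -0.96 ± 0.11 (SE; limma adjusted p = 5.4e-05). Both SPARC probe sets thus fell, by unequal amounts. The 3 genes whose 6-array profiles, each taken from its own control mean, lay nearest to that of SPARC were KLK8 (log2 change -1.94), PGBD5 (-1.98) and RARRES1 (-2.002).

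TNC encodes tenascin-C, a large matrix glycoprotein that is scarce in resting adult tissue and appears in wounds and tumour stroma. At 201645_at it measured 6.23, 6.86 and 6.60 in the mimic arrays, against 7.80, 7.92 and 8.03 in the control arrays. The mimic arrays were all lower and more spread, at 6.56 ± 0.31 against 7.92 ± 0.11 under the control (SD, n = 3 each). This was a log2 change of -1.35 ± 0.13 (SE; limma adjusted p = 1.6e-05). The other TNC probe sets did not pass. At 216005_at the values were 6.25, 6.34 and 6.15 in the mimic arrays and 6.31, 6.02 and 6.22 in the control arrays, and the groups overlapped. At 237169_at the log2 change was -0.16 with a 95% interval from -0.31 to -0.01 (limma adjusted p = 0.130). The fall of TNC therefore rests on 1 of its 3 probe sets, and with all 3 averaged the log2 change was -0.48 ± 0.07 (SE; limma adjusted p = 0.00023). Both other probe sets are among the dimmest 40%, 237169_at with means of 4.86 under the mimic and 5.02 under the control. Whether they were above background is not known.

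THBS1 encodes thrombospondin-1, which binds CD36 and CD47 on cells and can release active TGF-beta from its latent form. Its brightest probe set (201110_s_at) measured 11.06, 11.17 and 11.21 in the mimic arrays, against 10.96, 10.97 and 10.84 in the control arrays. The mimic arrays were all higher, with 0.09 log2 units between the nearest arrays. The difference was 0.23 ± 0.07 on the log2 scale (SE; limma adjusted p = 0.0327), a call lost in 7 of its 11 alternatives. Among these were leaving out mimic replicate 2 (adjusted p = 0.112), mimic replicate 3 (0.0950), control replicate 1 (0.0699), control replicate 2 (0.0528) or control replicate 3 (0.105). At 201109_s_at THBS1 measured 10.48, 10.55 and 10.51 in the mimic arrays, against 10.25, 10.17 and 10.23 in the control arrays. There the groups stood further apart relative to their spread, with a log2 change of 0.30 ± 0.06 (SE; limma adjusted p = 0.0034). Probe sets 201108_s_at (0.30), 201107_s_at (0.27) and 239336_at (0.35) also rose, and these 4 kept their calls at the 0.05 threshold under other scalings and when any 1 array was left out, though none reached 1.5-fold. Probe sets 215775_at (0.15) and 235086_at (-0.09) did not pass. THBS1 was thus higher at 5 of 7 probe sets, by 1.17-fold to 1.27-fold.

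TGFBI encodes a secreted protein, first found as a gene induced by TGF-beta, that binds integrins and collagen. Its single probe set (201506_at) measured 13.52, 13.57 and 13.63 in the mimic arrays, against 13.86, 13.83 and 13.86 in the control arrays. All mimic arrays were lower by a small amount. The log2 change was -0.27 ± 0.06 (SE; limma adjusted p = 0.0064), 1.21-fold lower in the mimic arrays. The values lie near the upper end of the array range, which reaches 14.9, and whether the probes were near saturation is not known.

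POSTN encodes periostin, a relative of the TGFBI protein built from the same fasciclin domains. Its brightest probe set (210809_s_at) measured 9.70, 9.79 and 10.04 in the mimic arrays, against 9.78, 9.74 and 9.72 in the control arrays. The groups overlapped, with mimic replicate 3 the highest array. On the log2 scale the difference was 0.10 ± 0.08 (SE; limma adjusted p = 0.447), with a 95% interval from -0.09 to 0.28. None of the 4 POSTN probe sets passed at either side, with log2 changes from -0.06 to 0.13. The 95% intervals lay between -0.09 and 0.32 at 3 of these probe sets, while that of 1555777_at ran from -0.38 to 0.27.

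DCN encodes decorin, a proteoglycan that binds collagen fibrils and TGF-beta and restrains the receptors EGFR and MET. At its brightest probe set (201893_x_at) it measured 13.70, 13.69 and 13.78 in the mimic arrays, against 12.14, 12.06 and 11.997 in the control arrays. All mimic arrays lay above all control arrays, with 1.56 log2 units between the nearest. Means were 13.72 ± 0.05 under the mimic and 12.06 ± 0.07 under the control (SD, n = 3 each), a log2 change of 1.66 ± 0.06 (SE; limma adjusted p = 1.7e-08). The mimic values lie as near the upper end of the array range as those of TGFBI, and whether these probes were near saturation is likewise not known. That probe set and 211813_x_at (log2 change 1.77) carry the suffix x_at, given to probe sets that may bind other transcripts. Without that suffix, 209335_at measured 10.86, 11.01 and 11.08 in the mimic arrays, against 9.17, 9.03 and 8.88 in the control arrays. The groups were again apart, with a log2 change of 1.95 ± 0.09 (SE; limma adjusted p = 4.1e-08). Probe set 211896_s_at measured 13.25, 13.34 and 13.39 in the mimic arrays, against 11.47, 11.43 and 11.08 in the control arrays. DCN also rose by 0.54 at 242605_at and by 0.44 at 240556_at, a dim pair with mimic means of 5.80 and 5.61. Only 239786_at, at 0.12 with a 95% interval from -0.04 to 0.28, did not pass among the 7 DCN probe sets. The 3 genes with 6-array profiles nearest to that of DCN were NAT1 (log2 change 1.597), TCEAL4 (1.58) and SLC29A1 (1.61).

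LUM encodes lumican, a keratan sulphate proteoglycan that spaces collagen fibrils. At 201744_s_at it measured 4.11, 4.001 and 4.18 in the mimic arrays, against 5.19, 5.08 and 5.20 in the control arrays. The groups did not overlap, and the mimic values lay close to the floor of the arrays. LUM there had a log2 change of -1.06 ± 0.07 (SE; limma adjusted p = 8.1e-07). The second probe set (229554_at) measured 4.57, 4.50 and 4.39 in the mimic arrays, against 4.52, 4.61 and 4.42 in the control arrays. There the groups overlapped, with a log2 change of -0.03 and a 95% interval from -0.19 to 0.13. The fall of LUM therefore rests on 1 of 2 probe sets, both dim, and with both averaged the log2 change was -0.54 ± 0.05 (SE; limma adjusted p = 6.8e-06). Probe set 201744_s_at is the brighter over all arrays only through the control arrays. In the mimic arrays its mean was 4.09, below that of 229554_at at 4.49.

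In the gene order of the reference annotation, DCN and LUM are next to each other, followed on the side of LUM by KERA and EPYC, which encode 2 more small leucine-rich proteoglycans. Of these 4 genes DCN was higher and LUM lower in the mimic arrays. KERA averaged 5.08 ± 0.04 under the mimic and 4.998 ± 0.029 under the control (SD, n = 3 each; log2 change 0.08, limma adjusted p = 0.382). EPYC averaged 4.564 ± 0.018 under the mimic and 4.496 ± 0.0013 under the control (SD, n = 3 each; 0.07, limma adjusted p = 0.443). BTG1, the next protein-coding gene beyond DCN, differed by 0.12 on the log2 scale (limma adjusted p = 0.157). DCN and LUM thus went opposite ways, LUM at 1 of its 2 probe sets. KERA, EPYC and BTG1 had small positive changes that did not pass. Further out, EEA1, 3 protein-coding genes from DCN on the side of BTG1, was called higher by 0.33 (limma adjusted p = 0.0091). CCER1, 3 genes from LUM on the other side, had a log2 change of -0.06 and did not pass. KERA, EPYC and LUM were dim, so whether the adjoining genes share a direction cannot be told. The gene order was looked at after the values had been seen.

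FBN1 encodes fibrillin-1, the main protein of the microfibrils that carry elastin and store latent TGF-beta. At 202766_s_at it measured 7.46, 7.74 and 7.84 in the mimic arrays, against 8.07, 8.13 and 8.14 in the control arrays. All mimic arrays were lower, replicate 1 most. The log2 change was -0.44 ± 0.09 (SE; limma adjusted p = 0.0041). Without mimic replicate 1 it was -0.33 (limma adjusted p = 0.0049). Probe set 202765_s_at measured 7.76, 7.65 and 7.76 in the mimic arrays, against 7.999, 7.92 and 7.96 in the control arrays. Its groups did not overlap, with a log2 change of -0.24 ± 0.06 (SE; limma adjusted p = 0.0161), a call lost without mimic replicate 2 (adjusted p = 0.0922) or control replicate 1 (0.0723). In the mimic arrays 202765_s_at was slightly brighter than 202766_s_at (mean 7.72 against 7.68), so the choice of 202766_s_at rests on the control arrays. The third probe set, 235318_at, had a log2 change of 0.13 with a 95% interval from -0.04 to 0.30 and did not pass.

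FAP encodes fibroblast activation protein, a membrane serine protease related to DPP4 that cleaves collagen fragments and peptides after proline. Its single probe set (209955_s_at) measured 8.82, 9.05 and 9.14 in the mimic arrays, against 10.65, 10.59 and 10.58 in the control arrays. All mimic arrays lay below all control arrays, with 1.44 log2 units between the nearest. FAP was lower by a log2 change of -1.60 ± 0.08 (SE; limma adjusted p = 1.3e-07), 3.04-fold lower in the mimic arrays. DPP4, its close relative and near neighbour in the genome, averaged 6.63 ± 0.07 under the mimic and 6.64 ± 0.18 under the control (SD, n = 3 each; log2 change -0.02, limma adjusted p = 0.924). Among 8 genes of the DPP and prolyl peptidase family and the urokinase system, 1 was lower and 1 higher, with a median of -0.01; 25% of the list was called, against 30.4% of all genes. Without mimic replicate 3, or with eBayes with trend and robust, 2 of them were lower, and with probe sets averaged 3 were. With the dimmest 40% of probe sets left out, 2 of the 6 genes fitted were lower. The urokinase gene PLAU was lower by a log2 change of -1.52 and the prolyl endopeptidase gene PREP was higher by 0.40.

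**Figure D2:**
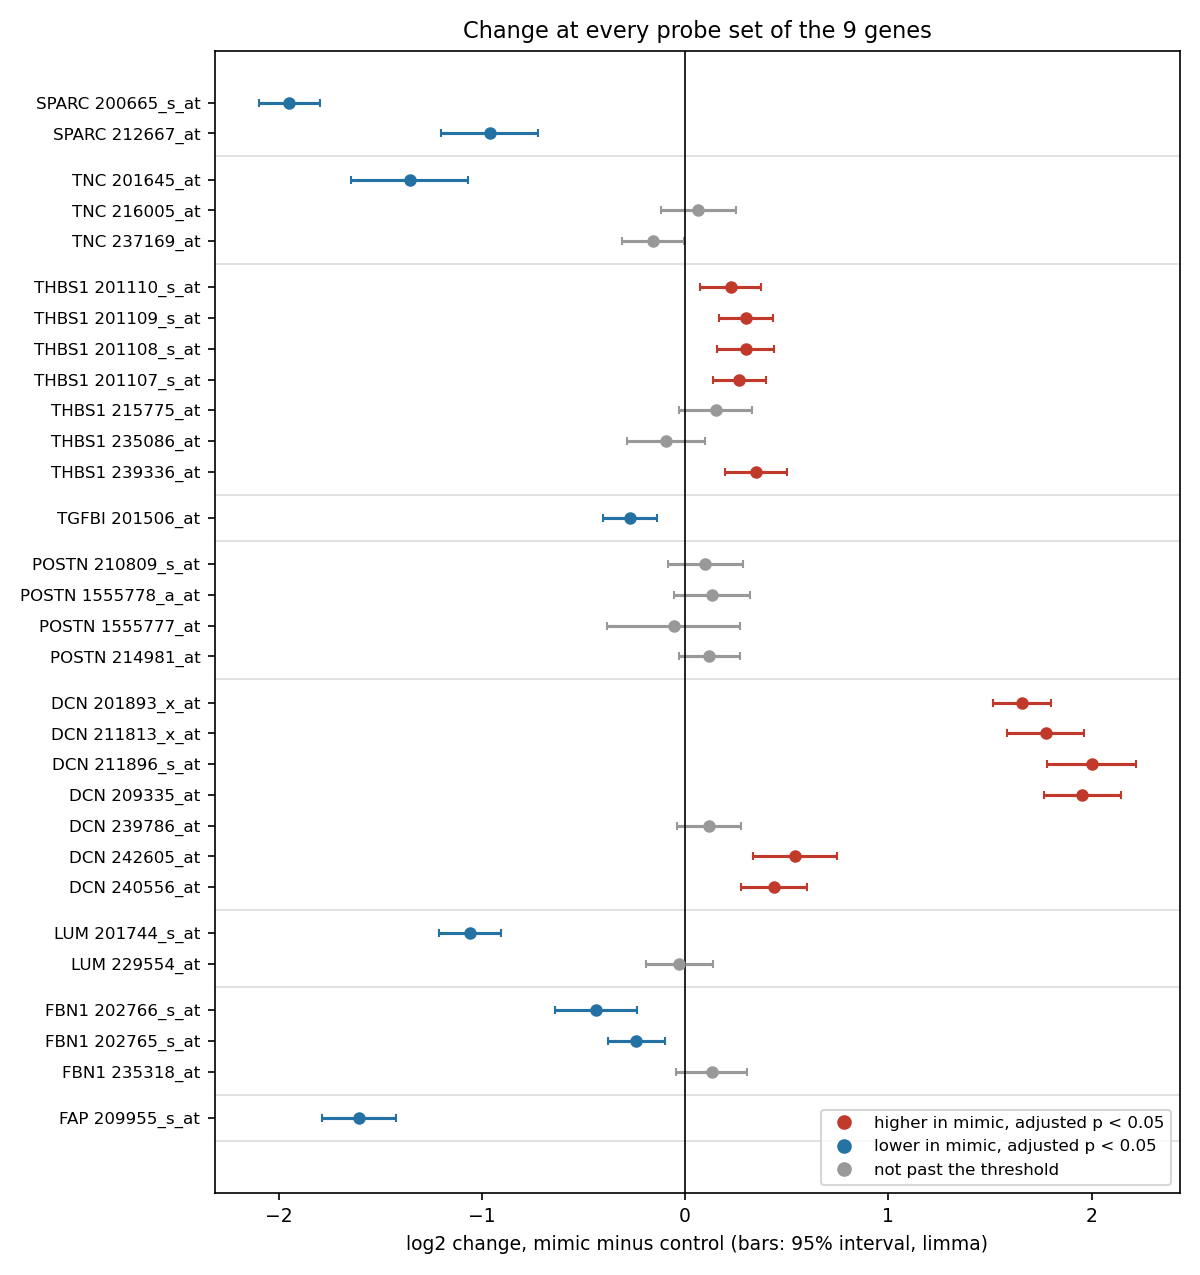
Log2 change (mimic minus control) at each of the 30 probe sets, ordered by gene and within a gene by brightness; bars are 95% intervals from limma and colours give the call at an adjusted p under 0.05. SPARC lies left of 0 at both probe sets and DCN right of 0 at all 7, from 0.12 upwards, while TNC and LUM are far from 0 at 1 probe set only.

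Related genes gave mixed directions. Of 23 further genes listed as matricellular relatives, 3 were lower and 4 higher, with a median log2 change of 0.07. Over all genes 30.4% changed in either direction, as did 30.4% of this list. The list also holds the receptor genes STAB1 and STAB2, which are not matricellular and were not called. CCN1, a secreted integrin ligand, averaged 12.46 ± 0.07 under the mimic and 10.14 ± 0.02 under the control (SD, n = 3 each), a log2 change of 2.32, and was called higher at both of its probe sets. CCN2, its relative, was lower by a log2 change of -0.33, a call lost without control replicate 1 (limma adjusted p = 0.0679). SPOCK1, a SPARC-related proteoglycan gene, was higher (0.82), and SMOC1, another gene of the SPARC family, was lower (-0.72). SPARCL1, the nearest relative of SPARC, had a log2 change of 0.07 and did not pass. THBS3 (0.74) and CCN5 (0.73) were higher, and FBLN1, which encodes fibulin-1, was lower (-1.02). Of the other thrombospondin genes, THBS2 (-0.01) and THBS4 (-0.02) did not pass.

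Of 12 further small leucine-rich proteoglycan genes, 1 was called, OMD, which encodes osteomodulin; this is 8.33% of the list, against 30.4% of all genes. Without control replicate 3, 2 genes of the list were higher. OMD averaged 7.95 ± 0.04 under the mimic and 6.77 ± 0.07 under the control (SD, n = 3 each), 2.26-fold higher, and was called higher at both of its probe sets. BGN, the closest relative of DCN, had a log2 change of 0.07, and the list's median was 0.07. Of 18 microfibril and elastic fibre genes, 4 were lower and 3 higher, with a median of 0.02; 38.9% of the list was called, against 30.4% of all genes. MFAP5, a microfibril glycoprotein gene, fell most, at 7.93 ± 0.11 under the mimic and 10.04 ± 0.05 under the control (SD, n = 3 each), on all 3 of its probe sets. LTBP2 (-0.97), EFEMP1 (-0.73) and LOXL1 (-0.26) were also lower, whereas FBLN5 (0.68), LTBP1 (0.65) and LOX (0.21) were higher. The LOX call was lost without mimic replicate 2 (limma adjusted p = 0.0575), mimic replicate 3 (0.105), control replicate 1 (0.0692), control replicate 2 (0.0740) or control replicate 3 (0.0890), and also with the replicate block (0.0552) and with arrays centred on their medians (0.0792). FBN2, the second fibrillin gene, had a log2 change of -0.09 at its brightest probe set and did not pass there, but 1 of its 3 probe sets was called higher.

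Receptors and co-receptors of these proteins were mostly lower where they changed: 11 of 21 measured genes fell and 2 rose, with a median of -0.20, against 16.3% lower and 14.1% higher over all genes. At least 1.5-fold lower were 7 of them, against 5.48% of all genes, and 1 was at least 1.5-fold higher, against 3.24%. Without mimic replicate 1 or 2, or control replicate 1 or 2, 9 of the 21 were lower. ITGA5 (-0.20) and ITGB1 (-0.22) lost their calls there. The ITGA5 call was also lost with the replicate block (limma adjusted p = 0.0606) and with quantile normalization (0.0733), where 10 were lower. KDR, a vascular growth factor receptor that decorin can bind, had a log2 change of -1.48, the laminin-binding integrin subunit gene ITGA3 one of -1.39 and ITGB8, a subunit of an integrin that activates TGF-beta, one of -1.16. ITGAV (-0.45) and ITGB5 (-0.34), subunits of integrins that bind periostin and the TGFBI protein, were lower too. EGFR was lower (-0.62) and MET higher (1.15), the receptors that decorin restrains. The thrombospondin receptor gene CD36 was called higher (0.23), while CD47 had a log2 change of -0.15 at its brightest probe set and did not pass there. Of the 7 CD47 probe sets, 1 was called lower and 1 higher. The CD36 call was lost without mimic replicate 2 (limma adjusted p = 0.0838), mimic replicate 3 (0.0894), control replicate 2 (0.0735) or control replicate 3 (0.0975), and also with quantile normalization (0.0835) and with arrays centred on their medians (0.0773).

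Among 10 TGF-beta ligand, receptor and SMAD genes, 4 were higher and 1 lower, with a median of 0.13, against 14.1% higher and 16.3% lower over all genes. Without mimic replicate 3, and with probe sets averaged, 2 were lower. With quantile normalization 6 were higher. TGFB1 averaged 10.997 ± 0.108 under the mimic and 10.02 ± 0.04 under the control (SD, n = 3 each), 1.98-fold higher, at 1 of its 2 probe sets. TGFBR3 (1.09), the feedback inhibitor gene SMAD7 (0.81) and TGFBR1 (0.39) were higher, and TGFBR2, the receptor that binds the ligand first, was lower (-0.96).

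**Figure D3:**
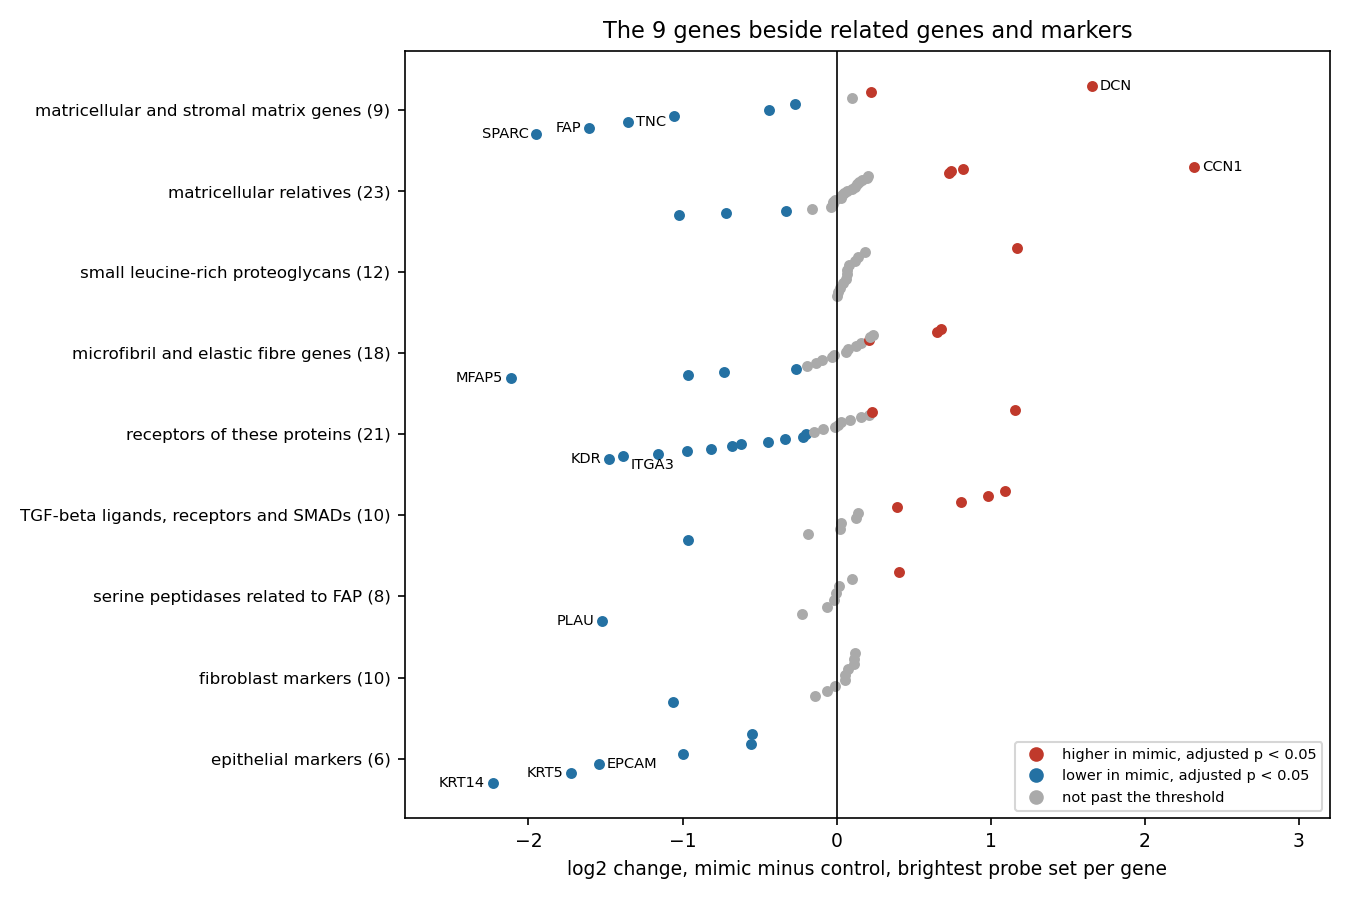
Log2 change (mimic minus control) at the brightest probe set of the 9 genes and of related and marker genes, 1 row of points per list with the number measured in brackets; colour gives the limma call, vertical position within a row is the rank, and genes beyond 1.3 in either direction are named. The 9 genes reach from -1.95 for SPARC to 1.66 for DCN, the fibroblast markers cluster near 0 with 1 gene lower, and all 6 measured epithelial markers lie left of 0.

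Markers of fibroblasts, the cells best known for these matrix genes, were read beside them. Over all genes 16.3% were lower, 14.1% higher and 30.4% called in either direction, and each marker list here is read beside these shares. Of 10 fibroblast markers, 1 fell and 0 rose, with a median log2 change of 0.05. S100A4, which other cell types also express, was the one that fell, by 1.06. The collagen genes COL1A1 (0.08), COL1A2 (0.06) and COL3A1 (0.11) and the receptor genes PDGFRA (-0.06) and PDGFRB (-0.14) did not pass. COL3A1 (mean 7.18 under the mimic, 7.07 under the control) and PDGFRB (7.02 and 7.16) lay below the array medians, whereas COL1A1 (9.59 and 9.51) lay above. Without detection calls it is not known which of these genes were expressed, so an unchanged marker need not mean unchanged cell content. The summed intensity of the 10 markers was 4530 to 4612 in the mimic arrays and 5571 to 5611 in the control arrays. Without S100A4, a choice made after seeing the data, the sum of the other 9 was 3500 to 3640 in the mimic arrays and 3458 to 3481 in the control arrays. All 6 measured epithelial markers fell, by log2 changes from -0.55 for KRT8 to -2.23 for KRT14, with KRT5 at -1.73, EPCAM at -1.54 and a median of -1.27. Their summed intensity was 12118 to 12932 in the mimic arrays and 31701 to 33333 in the control arrays. Of 5 endothelial markers 0 were called by limma, and 0 had an unadjusted p under 0.05. Of 4 measured blood cell markers, CD14 fell by 1.15 and ITGAM was higher by 0.21. The ITGAM call was lost without mimic replicate 1 (limma adjusted p = 0.107), mimic replicate 2 (0.172), control replicate 1 (0.188) or control replicate 2 (0.121), and also with the replicate block (0.0728), quantile normalization (0.0603), median centring (0.0766) and eBayes with trend and robust (0.0578). The part of these markers in the changes of the 9 genes was not tested.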

How the data were processed

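Total RNA of 6 MCF10A cultures was measured on single-colour arrays. The deposited values are log2 intensities per probe set that the authors normalized with RMA, per the submitters' processing notes. The RMA version and options are not given in the sources. RMA aligns the arrays' distributions, which hides any change in the amount of RNA per cell, and compresses dim values. The table holds 54675 probe sets, of which 62 control probe sets were left out. Probe sets were named from the platform annotation; 41091 had 1 symbol. A gene was read at its brightest probe set (highest 6-array mean).

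Mimic was compared with control with limma 3.58.1 (lmFit, eBayes) in R 4.3.3 over all 54613 probe sets, adjusted by Benjamini-Hochberg, and called at an adjusted p under 0.05. Log2 changes are mimic minus control, their errors limma's moderated standard errors, and intervals are unadjusted. The fit was also run on simulated data with independent noise and far fewer changed probe sets than were called here. That run does not show how well the calls hold in these data. The 9 genes and the lists of related and marker genes were chosen with earlier results of these data known. By rule, the text names all 9 genes, up to 3 called genes of each list with the largest change, all genes of a count of 3 or fewer, and 3 nearest profiles for SPARC and DCN. Other genes were named after their values were seen. Some listed genes were not analysed here, and counts are over those measured. Alternatives were leaving out the dimmest 40% of probe sets, quantile normalization, centring on medians, eBayes with trend and robust, a replicate block, leaving out each array, averaging probe sets and stricter thresholds. Tables used Python 3.11.15 with pandas 2.3.3, and figures matplotlib 3.10.9.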

Additional observations from a re-analysis of the deposited data

How the results depend on the processing

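Of 319 log2 changes of the 30 probe sets under alternatives, 303 changed neither sign nor call and 9 lost the call, at THBS1 201110_s_at and FBN1 202765_s_at. The other 7 changed sign, all at probe sets not called, when 1 array was left out: TNC 216005_at (-0.0182 to 0.127), THBS1 235086_at (-0.158 to 0.000996), POSTN 1555777_at (-0.227 to 0.0504) and LUM 229554_at (-0.0769 to 0.0212). With a 1.5-fold minimum, by construction fewer, 5 probe sets were lower and 4 higher, and no share over all probe sets was worked out. By gene, 4 of the 9 were then lower, against 5.48% of all genes, and 1 higher, against 3.24%. Of the 9 genes, 1 was higher (DCN) with arrays centred on their medians, at an adjusted p under 0.01 and with the 1.5-fold minimum, and 1 to 2 when an array was left out; for the first the cause was not tested. Without the dimmest probe sets LUM was not fitted, and 5 genes were lower. Shares over all features were not worked out under the other alternatives, so their counts have none beside them.

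Replicate numbers were not shown to pair the arrays: deviations of same-numbered arrays correlated with r = -0.107, 0.0841 and 0.0817, and mimic replicate 1 correlated best with control replicate 2. With the replicate block 8 probe sets were lower and 10 higher, and of the 9 genes 6 were lower and 1 higher. The number of arrays and the lack of detection calls limit what dim probe sets, such as those of LUM, can show.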
